A study of Homo sapiens with 4 samples.

Results

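The unfolded protein response and the integrated stress response were followed through 39 genes in HepG2 cells, which come from a human liver tumour and still express many genes of hepatocytes. The genes were chosen by name from the 23368 gene symbols of the deposited RNA sequencing table, and all 39 were in it. Each of the 4 conditions has 1 library of total RNA. The library titled shPJA/TGFb1 carries conflicting labels: its title joins a hairpin against PJA1, an E3 ubiquitin ligase, with TGFb1, but the label for its treatment is water, and in the design text an untreated control takes that place. It is named by its title throughout, and directions by title carry this limit. The TGFb1 library is labelled as treated with TGF-beta1, at 200 pM for 1 hour per the protocol, and the labels do not say whether it carried a hairpin. The shPJA1 library came from cells infected with a lentivirus that delivers the PJA1 hairpin. The shCtrl library came from cells infected with a control hairpin. With 1 library a condition no difference here has a replicate check.

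The endoplasmic reticulum (ER) folds secreted and membrane proteins, a heavy task in liver cells, which export most plasma proteins. When unfolded proteins build up there, the membrane sensors IRE1 (gene ERN1), PERK (gene EIF2AK3) and ATF6 raise folding and degradation capacity through the factors XBP1, ATF4 and the released part of ATF6. PERK shares its substrate, the initiation factor eIF2, with kinases that sense amino acid or haem shortage, and this shared branch, the integrated stress response (ISR), slows general translation while ATF4 protein is made and switches on genes for amino acid supply, redox balance and, through CHOP (gene DDIT3), cell death.

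The promoters of these genes are shown because they carry the short motifs by which the pathway is usually read. RefSeq promoters (build GRCh38.p14, 250 bases before to 50 bases after a start site) were at hand for 37 of the 39 genes, in 53 promoters, and PDIA3 and SLC7A11 were without one. The ER stress response element, CCAAT and CCACG with 9 bases between them on either strand, was in 9 of the 53 promoters (17.0%) and in 27 of all 35116 promoters of that length (0.0769%). The genes were HSPA5, HSP90B1, CALR, CANX, PDIA6, XBP1 and CRELD2. Its second form, ATTGG and CCACG with 1 base between them, was in 3 promoters (5.66%), those of HERPUD1, HYOU1 and SDF2L1, against 0.0541% of all promoters. The C/EBP-ATF or amino acid response element, searched as TGATGNAAN, was in 7 promoters (13.2%), against 3.61% of all. The unfolded protein response element, TGACGTGG, was in 1 member promoter, that of HYOU1, against 0.729% of all, and there it overlaps a copy of the second form. A match is a description of letters and not a site of binding.

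The 250 bases before the start sites of HSPA5 and HERPUD1 are given first, since these genes encode the central chaperone and a degradation factor whose promoter held 2 kinds of motif. Capitals mark the ER stress response element in HSPA5, and in HERPUD1 first the C/EBP-ATF element on the opposite strand and then the second form of the ER stress response element. All sequences read 5′ to 3′ on the gene's strand.
HSPA5, chr9:125241344-125241593, minus strand: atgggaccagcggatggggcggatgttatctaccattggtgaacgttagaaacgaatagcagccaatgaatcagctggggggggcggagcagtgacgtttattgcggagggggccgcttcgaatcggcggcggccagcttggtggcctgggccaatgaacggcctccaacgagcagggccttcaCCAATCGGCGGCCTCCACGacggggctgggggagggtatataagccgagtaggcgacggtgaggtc
HERPUD1, chr16:56931892-56932141, plus strand: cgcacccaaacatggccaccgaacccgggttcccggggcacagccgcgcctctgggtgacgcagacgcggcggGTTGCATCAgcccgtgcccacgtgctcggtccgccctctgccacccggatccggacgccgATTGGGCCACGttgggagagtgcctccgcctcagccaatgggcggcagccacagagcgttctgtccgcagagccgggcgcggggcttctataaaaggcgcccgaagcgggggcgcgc

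Shorter windows show the ER stress response elements of the other 8 genes that hold one, with the motif in capitals and up to 15 bases on either side. HSP90B1 and HYOU1 have 2 copies each.
HSP90B1, chr12:103930201-103930354, plus strand: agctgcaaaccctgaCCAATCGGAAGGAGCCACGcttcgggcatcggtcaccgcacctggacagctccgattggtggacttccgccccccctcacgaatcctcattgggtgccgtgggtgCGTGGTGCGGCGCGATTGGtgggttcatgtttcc
CALR, chr19:12938369-12938417, plus strand: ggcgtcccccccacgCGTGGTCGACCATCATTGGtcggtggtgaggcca
CANX, chr5:179698763-179698811, plus strand: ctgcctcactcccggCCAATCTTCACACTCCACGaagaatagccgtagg
PDIA6, chr2:10812838-10812886, minus strand: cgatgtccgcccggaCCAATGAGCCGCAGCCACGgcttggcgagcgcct
HYOU1, chr11:119057259-119057405, minus strand: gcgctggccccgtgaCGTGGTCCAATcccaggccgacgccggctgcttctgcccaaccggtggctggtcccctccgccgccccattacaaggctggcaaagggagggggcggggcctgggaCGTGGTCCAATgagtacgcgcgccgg
XBP1, chr22:28800588-28800636, minus strand: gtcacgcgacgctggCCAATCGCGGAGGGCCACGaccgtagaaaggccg
CRELD2, chr22:49918539-49918587, plus strand: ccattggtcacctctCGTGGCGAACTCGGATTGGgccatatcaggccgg
SDF2L1, chr22:21642099-21642139, plus strand: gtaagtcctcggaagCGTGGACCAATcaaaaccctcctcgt

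Windows of the same kind show the C/EBP-ATF element in 4 of the genes downstream of or partnering ATF4, with that motif in capitals.
CEBPG, chr19:33374056-33374094, plus strand: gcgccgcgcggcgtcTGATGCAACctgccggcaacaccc
ATF3, chr1:212565201-212565239, plus strand: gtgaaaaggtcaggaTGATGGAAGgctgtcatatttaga
CHAC1, chr15:40953246-40953284, plus strand: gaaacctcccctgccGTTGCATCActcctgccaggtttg
ASNS, chr7:97872453-97872491, minus strand: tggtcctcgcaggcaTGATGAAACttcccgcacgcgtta

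The reads assigned to genes numbered between 990698 and 2848665 a library, and a value is given as a normalized count, the reads of a gene divided by the library's size factor. Beside a ratio of libraries stands its 95% exact interval, which is computed from reads and covers counting error only. The targeted PJA1 had normalized counts of 9.78 in the library titled shPJA/TGFb1, 38.2 in TGFb1, 15.3 in shPJA1 and 50.3 in shCtrl. SMAD7, an early TGF-beta target, had 158.1, 168.0, 69.3 and 83.0 in the same order. The high SMAD7 of the library titled shPJA/TGFb1 goes against its water label. Its low PJA1, which the water label does not touch, goes against the design text with an untreated control in that place. Under both it would hold neither agent and would be the control of the TGFb1 library. All 10 hepatocyte markers had reads, with summed normalized counts between 38012 and 44435, while the 4 endothelial and 5 stromal markers summed to at most 3.51 and 8.18. Of the 5 leukocyte markers PTPRC and CD3E had 0 reads in every library and the list summed to between 1079 and 1517, nearly all from LYZ and CD68. In bulk RNA, fewer cells with a transcript and less of it per cell cannot be told apart.

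Per kilobase of transcript, the scale on which genes can be compared with each other, the resident ER chaperones led the members. CANX, the membrane-bound lectin chaperone calnexin, had a mean over the 4 libraries of 729.7 normalized counts per kilobase. HSP90B1, the ER form of HSP90 known as GRP94, followed with 510.1, and CALR, the soluble lectin chaperone calreticulin, with 368.1. HSPA5, the ER HSP70 chaperone BiP, which holds the stress sensors inactive, had 228.1 and ranked 8 of the 39. The transporter chain SLC3A2 followed CALR with 269.4, and TRIB3, a pseudokinase that ATF4 induces and that restrains ATF4, came next with 259.7. By role, the median per kilobase was 101.1 in the 14 chaperones and folding enzymes, 48.0 in the 4 degradation genes, 32 in the 6 sensors and ER-anchored factors, 48.2 in the 9 ISR factors and feedback genes, and 204.1 in the 6 genes of amino acid supply and other ATF4 targets. The lowest were CREB3L3 at 3.17, CHAC1 at 4.89 and CRELD2 at 5.29. Transcript lengths came from GENCODE, since the annotation behind the counts is not given in the sources used here.

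A mean normalized count of at least 20 was asked for before a gene entered counts and medians, which kept 35 members and 8575 genes in all, and SDF2L1, CRELD2, CREB3L3 and CHAC1 are given by value only. The highest library stood a median of 1.23 times above the lowest among the 35 members and 1.32 times among all genes kept, but members were read more deeply, with a median mean normalized count of 320.0 against 91.7, so counting error widens the value over all genes more. In 23 of the 35 (65.7%) the ratio was under 1.3, where it was in 46.1% of all genes kept. CANX was the steadiest on this measure, with normalized counts of 3117 in the library titled shPJA/TGFb1, 3004 in TGFb1, 3156 in shPJA1 and 3158 in shCtrl, a ratio of 1.05. Its interval in TGFb1 over shCtrl still excluded 1, at 0.951 (0.908 to 0.997), and values with a trend in GC content removed are given below. The ratio of the highest to the lowest library reached 1.5 in 6 members (17.1%, against 25% of all genes kept), namely DDIT3, DDIT4, VLDLR, ATF3, CALR and EIF2AK3. Together the 39 genes held between 0.990% and 1.01% of the reads of a library.

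**Figure D1:**
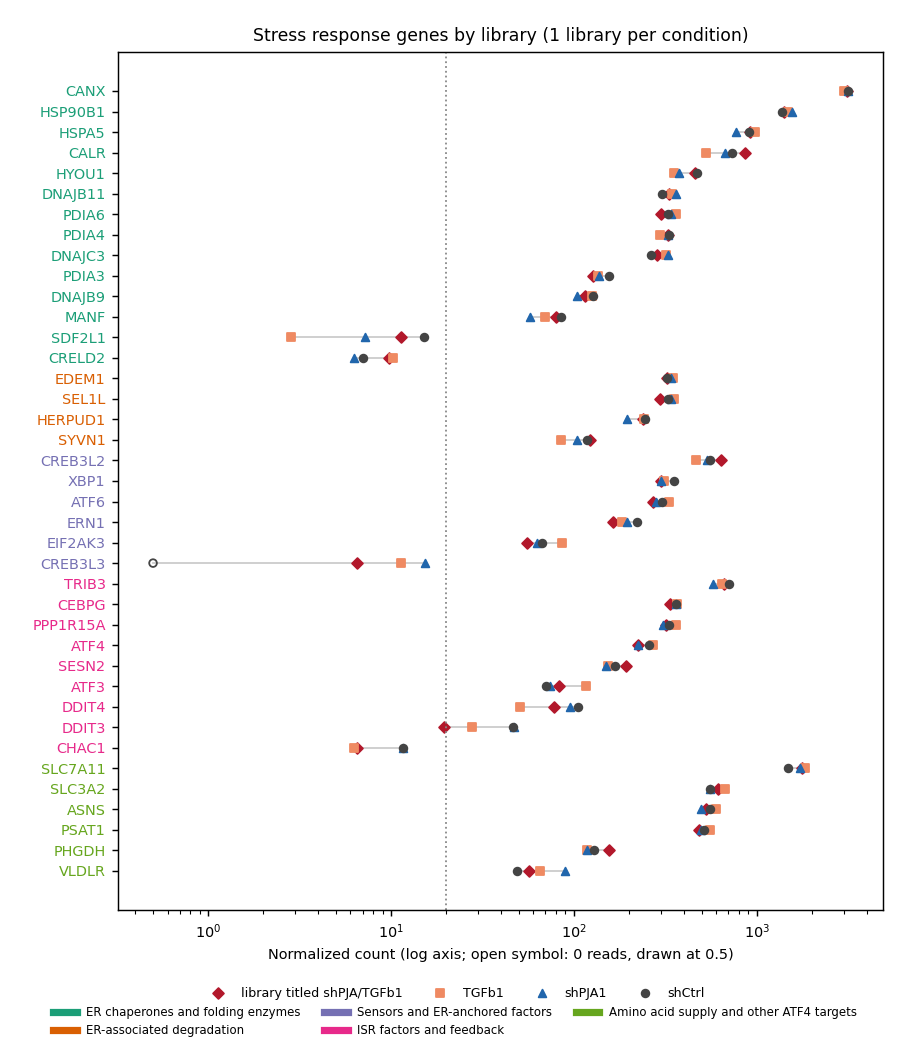
Normalized counts (log axis) of the 39 genes, 1 symbol per library, ordered by role and level; grey lines join the lowest and the highest library and the dotted line marks a mean of 20. Most genes of high level overlap in all 4 libraries, while DDIT3, DDIT4, ATF3, CALR and VLDLR spread more widely and CREB3L3 had 0 reads in shCtrl.

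The PJA1 hairpin alone was compared with the control hairpin. Among the 35 kept members 24 had a log2 ratio below 0 in shPJA1 over shCtrl, on the scale of log2 of the normalized count plus 1, with a median of -0.10, against 48.9% of all genes kept below 0 and a median of 0.01. At least 1.5-fold higher was 1 member, VLDLR, where 3.21% of all genes were, and 0 were 1.5-fold lower, where 3.17% were. The counting interval excluded 1 for 5 higher and 6 lower members, against 7.14% and 6.09% of all genes. Since deeply read genes have narrower intervals, these counts are not matched for depth. Ratios also followed the GC content of transcripts, and once that trend was removed from each library, 2 of the 5 higher and 2 of the 6 lower members no longer excluded 1, namely DNAJC3, SLC7A11, MANF and XBP1. CANX and DNAJB9, whose intervals had held 1, were then lower with intervals excluding it. Over all genes kept the intervals excluding 1 went from 612 higher and 522 lower to 429 and 443 among those with a GC value.

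The lower members held the chaperone BiP and further genes of folding, degradation and stress signalling, while other folding genes were higher, as given below. The output of single branches, such as those of ATF6 and XBP1, was not tested. HSPA5 had normalized counts of 914.4 in the library titled shPJA/TGFb1, 976.7 in TGFb1, 768.0 in shPJA1 and 905.8 in shCtrl. Only the shPJA1 library stood apart, and it was 0.848 times shCtrl (0.768 to 0.936). HYOU1, an ER chaperone that releases nucleotide from BiP, had 375.5 in shPJA1 and 473.4 in shCtrl, a ratio of 0.793 (0.69 to 0.912), but TGFb1 was also low at 354.2 and the library titled shPJA/TGFb1 was at 461.3. HERPUD1, a scaffold of the ER degradation complex, had 239.6, 241.5, 196.3 and 245.4 in the library titled shPJA/TGFb1, TGFb1, shPJA1 and shCtrl. Here too shPJA1 alone was low, at 0.8 times shCtrl (0.659 to 0.971). MANF, a secreted ER stress protein that binds BiP, was lowest in shPJA1 with 57.6 against 85.3 in shCtrl, a ratio of 0.675 (0.475 to 0.958), or 0.723 (0.506 to 1.02) with the GC trend removed. XBP1, the factor made active when IRE1 splices its messenger, had 298.0 in shPJA1 and 351.8 in shCtrl, at 0.847 (0.722 to 0.994), or 0.877 (0.747 to 1.03) with the trend removed, and values per gene do not tell spliced from unspliced messenger. TRIB3 had 577.1 in shPJA1 and 707.1 in shCtrl, at 0.816 (0.729 to 0.914).

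Other folding genes were higher in shPJA1, so genes of 1 role went both ways. HSP90B1 had 1405 in the library titled shPJA/TGFb1, 1485 in TGFb1, 1569 in shPJA1 and 1372 in shCtrl, and shPJA1 was 1.14 times shCtrl (1.06 to 1.23). The BiP co-chaperones DNAJB11 and DNAJC3, the second also an inhibitor of PERK, were at 1.19 (1.02 to 1.4) and 1.24 (1.04 to 1.46), and DNAJC3 was at 1.14 (0.967 to 1.36) with the trend removed. SLC7A11, the cystine importer, had 1734 in shPJA1 and 1491 in shCtrl, a ratio of 1.16 (1.08 to 1.25), which was 1.02 (0.947 to 1.09) with the trend removed. VLDLR, a lipoprotein receptor that the PERK and ATF4 branch can raise, had 57.0, 65.5, 89.1 and 49.1 in the order used above. Its shPJA1 value was above all others, at 1.82 times shCtrl (1.25 to 2.67), from 99 and 42 reads. An antisense gene annotated in GENCODE covers 738 exon bases of VLDLR, and reads of the strands cannot be told apart where counting is not stated to use strand. The same limit holds for other members, such as SLC7A11 with 865 shared bases, EIF2AK3 with 781, HYOU1 with 666 and CALR with 270. ASNS shares 1985 exon bases with a gene annotated on the same strand. All 5 kept sensors and anchored factors were below 0, but for ATF6, ERN1, EIF2AK3 and CREB3L2 the intervals held 1, at 0.924 (0.781 to 1.09), 0.876 (0.717 to 1.07), 0.946 (0.657 to 1.37) and 0.96 (0.849 to 1.09). ATF4 and CEBPG, its dimer partner, were at 0.871 (0.724 to 1.05) and 0.994 (0.855 to 1.16).

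The intervals of the remaining folding genes held 1. The disulfide isomerases PDIA3, PDIA4 and PDIA6 were at 0.874 (0.688 to 1.11), 0.991 (0.846 to 1.16) and 1.04 (0.892 to 1.22) in shPJA1 over shCtrl, and DNAJB9, a BiP co-chaperone that restrains IRE1, was at 0.813 (0.62 to 1.07), and at 0.759 (0.578 to 0.994) with the GC trend removed. CRELD2, a secreted ER stress protein, had 6, 18, 7 and 6 reads in the library titled shPJA/TGFb1, TGFb1, shPJA1 and shCtrl. At these depths intervals are wide, and a ratio of the size of that of HSPA5 lies within those of PDIA3, DNAJB9 and PDIA4.

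The members whose promoters hold either ER stress response element gave a median log2 ratio of -0.18 in shPJA1 over shCtrl, with 6 of 8 kept genes below 0. The 6 kept genes with a C/EBP-ATF element, of which HERPUD1 is in both sets, had -0.03, with 4 below 0. The 22 kept genes without either, or without a promoter in the table, had -0.11, with 15 below 0. Of all genes kept 48.9% were below 0 in this pair. With the GC trend removed the medians of these sets were -0.14, -0.04 and -0.06 in that order. In the library titled shPJA/TGFb1 over TGFb1 the genes with an ER stress response element had a median of -0.03, with 5 of 8 below 0, and 4 of 8 with the GC trend removed. Their median was 0.13 in the library titled shPJA/TGFb1 over shPJA1, with 5 of 8 above 0. It was -0.05 in TGFb1 over shCtrl and -0.03 in the library titled shPJA/TGFb1 over shCtrl, each with 5 of 8 below 0. In shPJA1 over shCtrl HSP90B1, with 2 copies of the element, was among the higher genes, while HSPA5, HYOU1, HERPUD1 and XBP1 were lower.

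**Figure D2:**
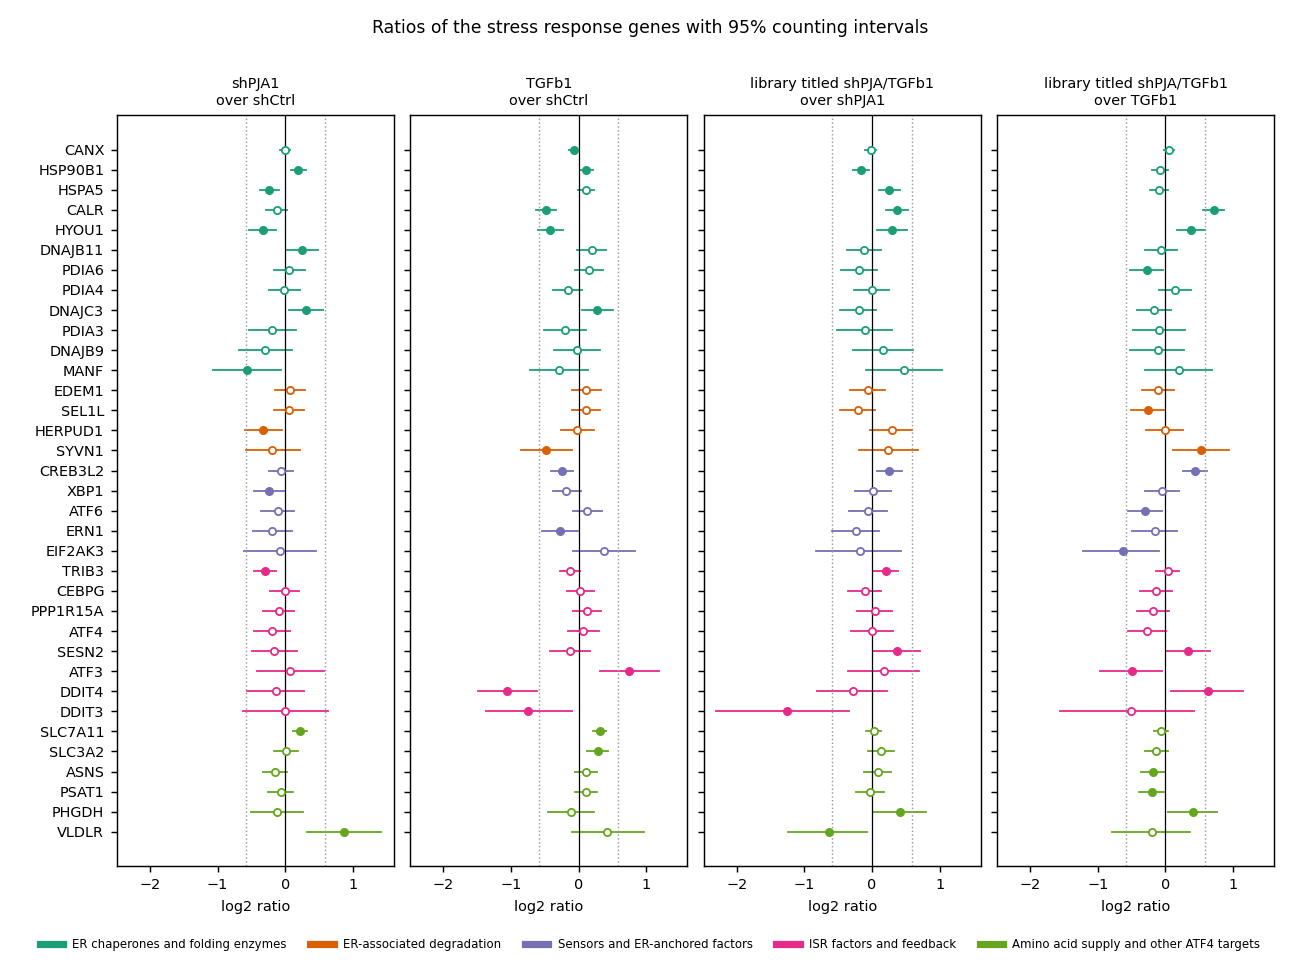
log2 ratios of the 35 kept members in 4 pairs of libraries, coloured by role, with 95% counting intervals as bars; filled points have an interval that excludes a ratio of 1, and dotted lines mark 1.5-fold. Most points lie between the dotted lines, DDIT3 and DDIT4 lie left of them in TGFb1 over shCtrl, VLDLR lies right of them in shPJA1 over shCtrl, and CALR lies right of them in the library titled shPJA/TGFb1 over TGFb1.

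The TGFb1 library was compared with shCtrl, a pair that differs in the cytokine, given within the last hour. Lentiviral infection is on record for shCtrl but not for TGFb1. The ratios therefore cannot part the cytokine from infection. The median log2 ratio of the 35 members was 0.02, against 0.02 for all genes kept, and 17 of 35 were below 0, where 47.6% of all genes were. At least 1.5-fold higher was 1 member, ATF3, against 3.56% of all genes, and 2 were lower, DDIT3 and DDIT4, against 5.13%. Intervals excluded 1 for 5 higher and 8 lower members, against 13.5% and 10.6% of all genes. All 3 members past 1.5-fold were ISR genes that also answer other signals.

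DDIT4, an inhibitor of the growth kinase mTORC1 known as REDD1, had normalized counts of 78.2 in the library titled shPJA/TGFb1, 50.7 in TGFb1, 95.4 in shPJA1 and 105.2 in shCtrl. The libraries with TGFb1 in their title were the lower ones, and TGFb1 was 0.482 times shCtrl (0.355 to 0.653). DDIT3, which encodes the pro-apoptotic factor CHOP, had 19.6, 27.9, 46.8 and 46.8 in that order, from 12, 49, 52 and 40 reads. Again the libraries titled with TGFb1 were the lower ones, and TGFb1 was 0.597 times shCtrl (0.385 to 0.93). How many of all genes kept show this order of libraries, as DDIT4 and DDIT3 do, is not given here. DDIT3 shares 355 exon bases in GENCODE with MARS on the opposite strand, whose normalized counts were 414.0, 415.2, 404.3 and 445.3, and DDIT4 shares 847 with an antisense gene. ATF3, a stress-induced repressor that SMAD proteins also bind, had 83.1 in the library titled shPJA/TGFb1, 117.3 in TGFb1, 73.8 in shPJA1 and 70.1 in shCtrl. TGFb1 alone stood high, at 1.67 times shCtrl (1.25 to 2.27). CHAC1, a glutathione-degrading enzyme downstream of ATF4 and CHOP, had 4, 11, 13 and 10 reads in the same order, with a ratio of 0.536 (0.207 to 1.41) in TGFb1 over shCtrl.

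ATF4 itself differed little, with 224.9 in the library titled shPJA/TGFb1, 271.1 in TGFb1, 225.1 in shPJA1 and 258.3 in shCtrl, a ratio of 1.05 (0.893 to 1.24) in TGFb1 over shCtrl. PPP1R15A, the phosphatase subunit GADD34 that ends the ISR, was at 1.09 (0.946 to 1.26), and TRIB3 at 0.917 (0.83 to 1.01). With the GC trend removed the intervals of PPP1R15A and DNAJB11 came to exclude 1, at 1.21 (1.05 to 1.39) and 1.17 (1.01 to 1.36). Of the 6 genes of amino acid supply and other ATF4 targets 5 were above 0, with a median log2 ratio of 0.20, or 0.08 with the GC trend removed. SLC7A11 and its partner chain SLC3A2, which together exchange cystine for glutamate, were at 1.24 (1.16 to 1.32) and 1.22 (1.09 to 1.36), and with the trend removed at 1.04 (0.974 to 1.11) and 1.34 (1.2 to 1.49). ASNS, asparagine synthetase, and PSAT1 of serine synthesis were both at 1.08, with intervals of 0.968 to 1.21 and 0.962 to 1.21. PHGDH, which opens serine synthesis, was at 0.921 (0.728 to 1.17).

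Among the chaperones CALR was lower in TGFb1 than in any other library. Its normalized counts were 865.5 in the library titled shPJA/TGFb1, 526.8 in TGFb1, 673.5 in shPJA1 and 736.3 in shCtrl, and TGFb1 was 0.715 times shCtrl (0.646 to 0.793). HYOU1 was at 0.748 (0.659 to 0.85) and SYVN1, the HRD1 ubiquitin ligase of ER degradation, at 0.719 (0.555 to 0.935). SYVN1 shares 398 exon bases with FAU on the same strand, whose normalized counts were 282.0 in the library titled shPJA/TGFb1, 206.2 in TGFb1, 256.6 in shPJA1 and 294.5 in shCtrl. FAU was lowest in TGFb1 as SYVN1 was, and its part in the SYVN1 value was not tested. SEL1L, the partner of HRD1, was at 1.07 (0.931 to 1.24) and EDEM1, a mannosidase-like degradation factor, at 1.08 (0.937 to 1.25). ERN1 and CREB3L2, a membrane-anchored factor related to ATF6, were at 0.826 (0.688 to 0.993) and 0.842 (0.752 to 0.945). The intervals of SYVN1 and ERN1 held 1 with the GC trend removed, at 0.798 (0.614 to 1.03) and 0.862 (0.717 to 1.04). SDF2L1, an ER protein that works with DNAJB11, had 7, 5, 8 and 13 reads in the library titled shPJA/TGFb1, TGFb1, shPJA1 and shCtrl, and was at 0.187 (0.0523 to 0.56) in TGFb1 over shCtrl. CREB3L3, a liver and gut relative of these factors, had 4, 20, 17 and 0 reads in that order, and against the floor of 3 reads in shCtrl it was at least 3.25-fold higher in TGFb1 and at least 4.37-fold higher in shPJA1. For the 4 reads of the library titled shPJA/TGFb1 the interval against shCtrl held 1.

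By title, a second pair differs in TGFb1, the library titled shPJA/TGFb1 over shPJA1, and it shares no library with the first. The members' median log2 ratio there was -0.0010 against 0.0036 for all genes kept, with 18 of 35 below 0. None was 1.5-fold higher, where 3.52% of all genes were, and 2 were lower, DDIT3 and VLDLR, where 4.33% were. Intervals excluded 1 for 7 higher and 3 lower members, against 5.9% and 4.89% of all genes. The direction was the same in both pairs for 12 of the 35 members (34.3%), where it was for 44.8% of all genes kept. With the GC trend removed it was the same for 48.6% of the members, 9 below 0 and 8 above 0 in both, where all genes kept had 2122 and 2167. Pearson's r over the 35 members was 0.07 and over all genes kept -0.06, and the points of a pair share its libraries, their depth and the GC trends described below.

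DDIT3 was the 1 member lower in both pairs with intervals excluding 1, where 37 of the 8575 genes kept were (0.431%), at 0.597 in TGFb1 over shCtrl, while the library titled shPJA/TGFb1 had 0.418 (0.203 to 0.793) of the shPJA1 level. No member was higher in both in that sense, where 64 genes were (0.746%). DDIT4 was at 0.82 (0.57 to 1.16) in the second pair and ATF3 at 1.13 (0.778 to 1.62), so neither passed there. By contrast, 4 members went opposite ways with both intervals excluding 1, where 214 of all genes kept did (2.5%), and with the GC trend removed 2 members did, CALR and CREB3L2, where 91 of all genes did. CALR was 1.29 (1.15 to 1.44) in the library titled shPJA/TGFb1 over shPJA1 and HYOU1 1.23 (1.05 to 1.43; 0.992 to 1.35 with the GC trend removed), with CREB3L2 at 1.19 (1.05 to 1.36), each lower in TGFb1 over shCtrl. HSP90B1 was at 0.895 (0.824 to 0.972; 0.861 to 1.02 with the trend removed) and had been 1.08 (1.01 to 1.16) in the other pair. HSPA5 was at 1.19 (1.07 to 1.33), TRIB3 at 1.15 (1.01 to 1.3), SESN2, a leucine-sensing inhibitor of mTORC1, at 1.29 (1.01 to 1.64) and PHGDH at 1.33 (1.01 to 1.74). The last 3 intervals, those of TRIB3, SESN2 and PHGDH, held 1 with the GC trend removed, at 1.06 (0.93 to 1.2), 1.19 (0.935 to 1.52) and 1.23 (0.938 to 1.62). The interval of SLC7A11 came to exclude 1 with the trend removed, at 1.11 (1.03 to 1.19). The comparison shares its shPJA1 library with the hairpin comparison above, where HSPA5 and TRIB3 were low.

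**Figure D3:**
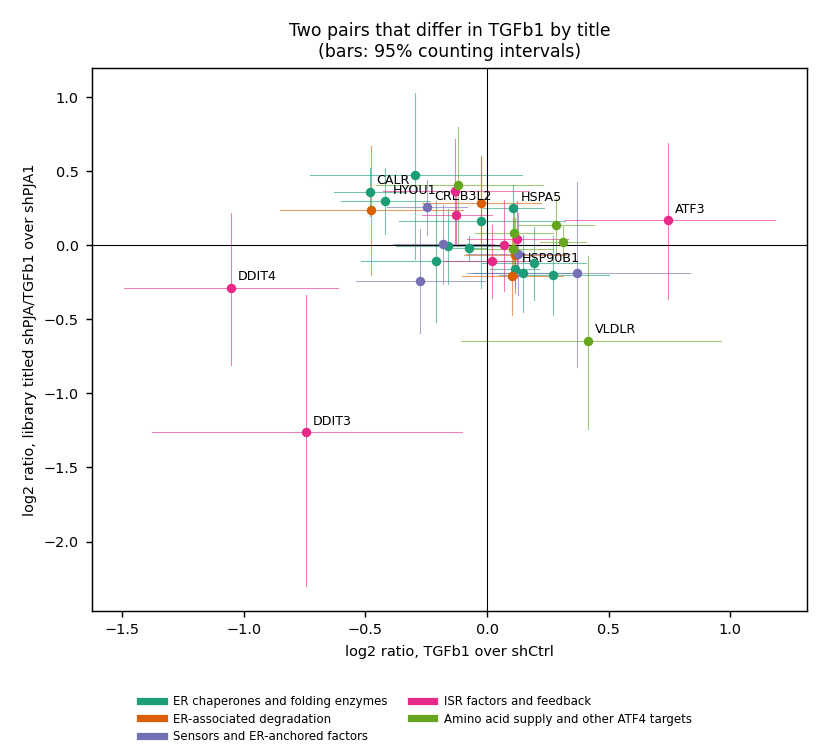
log2 ratio in TGFb1 over shCtrl (horizontal) and in the library titled shPJA/TGFb1 over shPJA1 (vertical) for the 35 kept members, with 95% counting intervals as bars and colours for roles. DDIT3 is low on both axes, DDIT4 and ATF3 lie far from 0 on the horizontal axis only, and CALR, HYOU1 and CREB3L2 lie upper left.

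The size of this disagreement was taken as a ratio of the 2 ratios, the library titled shPJA/TGFb1 over shPJA1 divided by TGFb1 over shCtrl, with an approximate 95% interval from the 4 read counts. It excluded 1 for 14 of the 35 members, where 21.6% of all genes kept did, 9 of them above 1 and 5 below, against 10.1% and 11.5% of all genes kept. Members were read more deeply, so their intervals are narrower and these counts are not matched for depth. CALR had 1.8 (1.55 to 2.09), HYOU1 1.64 (1.35 to 2.0) and CREB3L2 1.42 (1.19 to 1.68). VLDLR had the smallest, 0.48 (0.284 to 0.809). No model over the 4 libraries leaves a degree of freedom to test this.

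If the title holds, the library titled shPJA/TGFb1 over TGFb1 differs by the PJA1 hairpin. The pair may also differ by lentiviral infection as such, since no control hairpin is on record for TGFb1. Among the 35 members 24 were below 0 with a median of -0.09, against 51.6% of all genes and a median of -0.01. At least 1.5-fold higher were 2, CALR and DDIT4, where 4.76% of all genes were, and 1 was lower, EIF2AK3, where 4.33% were. Intervals excluded 1 for 7 higher and 7 lower members, against 8.69% and 9.46%. CALR was at 1.64 (1.47 to 1.83), DDIT4 at 1.54 (1.06 to 2.22), SYVN1 at 1.44 (1.08 to 1.91), CREB3L2 at 1.36 (1.2 to 1.54) and HYOU1 at 1.3 (1.13 to 1.5). With the GC trend removed DDIT4 was at 1.39 (0.964 to 2.01) and SYVN1 at 1.29 (0.969 to 1.72), while CALR stayed past 1.5-fold. EIF2AK3, which encodes PERK, had 55.4 in the library titled shPJA/TGFb1, 86.0 in TGFb1, 63.0 in shPJA1 and 66.6 in shCtrl, and was at 0.644 (0.431 to 0.94) over TGFb1, where TGFb1 was the library that stood high, and with the trend removed it was at 0.683 (0.453 to 0.99), within 1.5-fold. ATF3 was at 0.709 (0.511 to 0.967) and ATF6 at 0.812 (0.679 to 0.967), or 0.888 (0.743 to 1.06) with the trend removed. In all 4 of the 7 higher and 5 of the 7 lower members no longer excluded 1 with the trend removed. Over all genes kept the intervals excluding 1 went from 745 higher and 811 lower to 643 and 515 among those with a GC value. Another 5 members then came to exclude 1. ATF4 was lower at 0.761 (0.624 to 0.921), PPP1R15A at 0.795 (0.673 to 0.934) and SLC3A2 at 0.828 (0.735 to 0.931). CANX and SLC7A11 were higher, the second at 1.08 (1.01 to 1.16). With the first hairpin pair, which shares no library with this one, 13 members were below 0 in both and 0 above 0 in both, where all genes kept had 1876 and 1835. The other 22 members had opposite signs, so that 37.1% had the same sign, against 43.3% of all genes kept, and Pearson's r over the 35 members was -0.29. Removing the GC trend gave 13 below 0 and 3 above 0 in both, where all genes kept had 2118 and 2142. For 0 members did the intervals exclude 1 in the same direction in both hairpin pairs, where 20 genes were lower in both and 28 higher. HYOU1 excluded it in opposite directions, as 243 genes did (2.83%).

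The library titled shPJA/TGFb1 over shCtrl had the fewest members with an interval excluding 1 of the 5 pairs, with a median of -0.04 against 0.01 for all genes and 21 of 35 below 0. None was 1.5-fold higher, where 3.87% of all genes were, and DDIT3 alone was lower, where 4.77% were, at 0.418 (0.2 to 0.813). Intervals excluded 1 for 2 higher members, CALR at 1.18 (1.05 to 1.32) and SLC7A11 at 1.18 (1.09 to 1.28), against 5.87% of all genes, and for 2 lower, DDIT3 and ERN1 at 0.741 (0.576 to 0.949), against 4.3%. Those shares of all genes were also the lowest of the 5 pairs in each direction. The 2 libraries of this comparison have the fewest reads, 990698 and 1363318, which widens its intervals. With the GC trend removed the interval of CREB3L2 came to exclude 1, at 1.15 (1.01 to 1.32). This comparison, shPJA1 over shCtrl and TGFb1 over shCtrl all share shCtrl.

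Members of high and low transcript GC content went apart in 4 of the 5 pairs. In the library titled shPJA/TGFb1 over TGFb1 the 15 members of at least 50% GC had a median log2 ratio of 0.14 and the 20 members below it -0.13, and all genes kept showed 0.12 and -0.10. In TGFb1 over shCtrl the order was turned, at -0.16 and 0.11 for the members and -0.12 and 0.11 for all genes. The library titled shPJA/TGFb1 over shPJA1 gave 0.17 and -0.09 for the members and shPJA1 over shCtrl -0.16 and -0.0048, while the library titled shPJA/TGFb1 over shCtrl gave -0.04 and -0.05. The part of GC content in single results was not tested, and values with each library's GC trend removed stand beside them here. CALR, of 53.9% GC, was then at 0.769 in TGFb1 over shCtrl, 1.22 in the library titled shPJA/TGFb1 over shPJA1 and 1.54 in that library over TGFb1. DDIT3, of 49.7% GC, was at 0.623 and 0.421 in the TGFb1 pairs by title, DDIT4 at 0.537 and 0.765, and ATF3 at 1.73 and 1.09. HSPA5 was at 0.845 and HYOU1 at 0.847 in shPJA1 over shCtrl, VLDLR at 1.72, and SLC7A11, of 35.4% GC, was at 1.02 there and at 1.04 in TGFb1 over shCtrl. HSP90B1 came to 0.998 in TGFb1 over shCtrl. CANX, the steadiest member before this step, came to 0.865 (0.826 to 0.907) in TGFb1 over shCtrl and 0.943 (0.897 to 0.992) in shPJA1 over shCtrl. In the library titled shPJA/TGFb1 over TGFb1 CANX was at 1.13 (1.07 to 1.19). The ratio of ratios excluded 1 for 9 members with the trend removed, where 14.1% of all genes did, and 4 of the 14 earlier ones were among them, CALR, HYOU1, CREB3L2 and VLDLR.

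**Figure D4:**
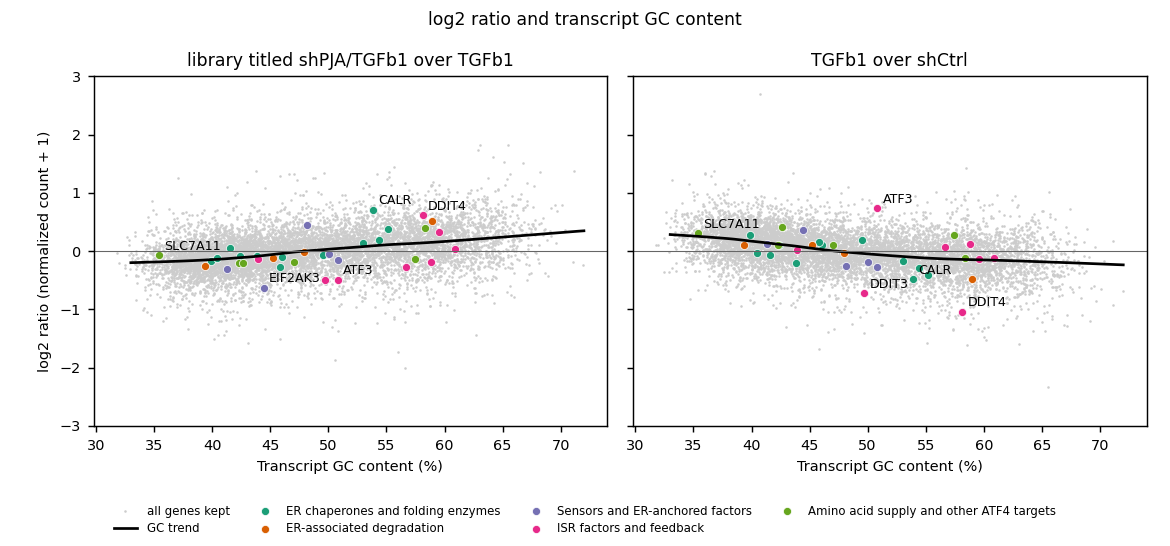
log2 ratio (normalized count plus 1) against transcript GC content for all genes kept with a GC value (grey), the lowess trend (line) and the 35 kept members (coloured by role), in the library titled shPJA/TGFb1 over TGFb1 (left) and TGFb1 over shCtrl (right). The trend climbs with GC content on the left and falls on the right, and CALR, DDIT4, DDIT3, ATF3 and EIF2AK3 lie away from it.

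Further genes of the same pathways were counted from 4 lists. Their counts past 1.5-fold stand against 3.21% of all genes kept higher and 3.17% lower in shPJA1 over shCtrl, and against between 3.17% and 5.13% in either direction over the 5 pairs. Of 29 kept genes of ER folding, translocation and oxidation, 0 were past 1.5-fold in shPJA1 over shCtrl, with a median log2 ratio of -0.0041, and 1 was in TGFb1 over shCtrl. This was FKBP2, an ER prolyl isomerase, at 0.499 with 50.1 in TGFb1 and 100.5 in shCtrl, and it was at 2.41 in the library titled shPJA/TGFb1 over TGFb1. Of 17 further ER degradation genes 0 were past 1.5-fold in any of the 5 pairs. Of 19 further eIF2 kinases, eIF2 genes, proteases and related factors, CREB3, another membrane-anchored factor, was at 0.558 in the library titled shPJA/TGFb1 over shCtrl. Of 25 further ATF4 and CHOP targets 21 were below 0 in shPJA1 over shCtrl, against 48.9% of all genes, with a median of -0.13 and 0 past 1.5-fold in either direction. There 17 of the 25 were below 0 with the GC trend removed. In the library titled shPJA/TGFb1 over TGFb1 16 of the 25 were above 0 and 9 below, with a median of 0.10, where 51.6% of all genes kept were below 0. With the GC trend removed 12 of the 25 were below 0 there and the median was 0.02. In TGFb1 over shCtrl 4 of those 25 were lower by 1.5-fold and 0 higher, where 5.13% and 3.56% of all genes kept were. ATF5, an ISR factor translated much as ATF4 is, was at 0.392, the glutamine carrier SLC1A5 at 0.631 and CEBPB, a dimer partner of CHOP, at 0.65. PSPH, the last enzyme of serine synthesis, was at 1.76 in the library titled shPJA/TGFb1 over TGFb1.

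A quasi-likelihood fit in edgeR over 10210 genes, with 1 term for the hairpin and 1 for TGFb1 as the titles give them, called 1 gene in all for the hairpin, PJA1, and 4 for TGFb1, and 0 of the 36 members in the fit for either. For TGFb1 the fit gave 3 members an unadjusted p under 0.05, where 3.75% of all genes had one, and for the hairpin 0 members, where 2.30% did. These were DDIT3, with a log2 change of -0.94 ± 0.32 (SE, edgeR adjusted p = 0.749), DDIT4 with -0.71 ± 0.24 (edgeR adjusted p = 0.749) and ATF3 with 0.48 ± 0.23 (edgeR adjusted p = 0.999). DESeq2 called 0 genes of any kind for either term, and gave 0 members an unadjusted p under 0.05. The fit treats the 2 pairs of each term as repeats of one another and has 1 residual degree of freedom.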

How the data were processed

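RNA of 4 HepG2 libraries was analysed from 1 table of 23368 gene symbols. Per the submitters' processing notes the authors ran Cufflinks, TopHat2 2.0.10, Trimmomatic and FastQC, with build and annotation not given in the sources used here. The deposited table is named as FPKM, but 100% of its values were whole multiples of 1 step per library within a tolerance of 1e-06, so the deposited signal is reads divided by a size factor. Reads were recovered from the steps. The plan had no test for the pairs, since each condition has 1 library.

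Genes of a mean of at least 20 were kept. Log2 ratios used a pseudocount of 1, which understates changes of low genes, and 1.5-fold was the size rule. Plain ratios have exact conditional 95% intervals of Poisson counts. The ratio of ratios has a normal approximation on the log scale. GC content and length came from the longest coding GENCODE release 29 transcript, matched for 98.7% of kept genes, and a lowess trend (span 0.3) per library was removed as an alternative. The secondary fit used edgeR 4.0.16 (quasi-likelihood, TMM, genes of at least 40 reads, Benjamini-Hochberg over all genes) in R 4.3.3, with DESeq2 1.42.0 beside it. The edgeR fit, for its TGFb1 term, and the intervals were tested on simulated data, and the DESeq2 fit was not. Other steps ran in Python 3.11.15 with scipy 1.17.1, pandas 2.3.3, matplotlib 3.10.9 and numpy 2.4.6.

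All 39 members are named, with PJA1 and SMAD7, and up to 3 genes per further list and pair past 1.5-fold with an interval excluding 1. The members and lists were chosen with earlier results of these data known. Overlapping genes came from GENCODE, and 5 members (PDIA3, XBP1, ATF4, ASNS and PSAT1) have pseudogenes named after them there, with which reads could be shared.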

Additional observations from a re-analysis of the deposited data

Results flagged for a closer look

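In 4 members the ratio differed in direction between the pairs that differ in TGFb1 by title, with both counting intervals excluding 1, as 214 of the 8575 genes kept did. With the GC trend removed this held for 2 of the 4, CALR and CREB3L2. CALR was at 1.29 in the library titled shPJA/TGFb1 over shPJA1 and at 0.715 in TGFb1 over shCtrl. HYOU1 was at 1.23 (1.16 with the trend removed) and 0.748, and CREB3L2 at 1.19 and 0.842. HSP90B1 was at 0.895 and 1.08, and at 0.935 and 0.998 with the trend removed. The difference was not tested, since each pair has 1 library on each side, and it rests on the title of the library with conflicting labels. The pair TGFb1 over shCtrl may also differ in lentiviral infection.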

How the results depend on the processing

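With TMM or upper-quartile factors, or a pseudocount of 0.5 or 5, every median and count of members past 1.5-fold was rated as unchanged. The medians were so rated in all 7 alternatives. The limits behind that rating are not given here, so its strictness cannot be judged. With TMM factors all 195 single values were rated the same. Lowering the filter to a mean of 1, or dropping it, let in the 4 low members, and the members past 1.5-fold then numbered 3 in shPJA1 over shCtrl, 6 in TGFb1 over shCtrl, 5 in the library titled shPJA/TGFb1 over shPJA1, 5 in that library over TGFb1 and 3 in that library over shCtrl. The members added are those low ones, with at most 20 reads in a library, where counting error alone can pass 1.5-fold. The share of all genes at those filters is not given here, so these counts are no result about the members. With the GC trend removed and the filter kept, the members past 1.5-fold numbered 1 in the library titled shPJA/TGFb1 over shPJA1 and 1 in that library over TGFb1. HSP90B1 in TGFb1 over shCtrl then turned to a log2 ratio of -0.0032, and 9 further single values left their counting interval. Under the settings run, edgeR called 0 members and at most 1 gene for the hairpin and 4 for TGFb1, and DESeq2 called 0 genes. No paired analysis was possible because each condition has 1 library. Depth limits the low members most: 1 read is a normalized count of 1.63 in the library titled shPJA/TGFb1.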
